A study of Mus musculus with 8 samples.

Results

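The 10 mature microRNAs (miRNAs) described here are both arms of miR-431, miR-433, miR-127, miR-434 and miR-136, whose 5 hairpins lie on mouse chromosome 12 opposite the coding sequence of Rtl1, a retrotransposon-derived gene. They were chosen by name and position, though with earlier results of these data known. They are 10 of the 1915 mature miRNAs in the small RNA sequencing of mouse embryonic stem (ES) cells. All 10 were among the 475 miRNAs that passed the filter on low counts. Their arms are called 5p and 3p after the side of the hairpin from which they are cut.

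The cells were of the 129/Ola background and grew in 15% serum with 100 U/mL of leukaemia inhibitory factor. Each of 4 groups had 2 libraries made from 1 µg of total RNA. Wild-type E14 cells gave libraries A and B, and Ago2 knockout cells gave 1 library from each of the lines 1 and 2. The AGO1 line, which per its genotype label was made from knockout line 1 and carries inducible AGO1, gave libraries A and B without doxycycline and libraries A and B with doxycycline at 1 µg/mL. All AGO1-line libraries thus lack Ago2, come from 1 line and were grown in puromycin at 2 µg/mL, which the wild-type and knockout cells did not receive. Doxycycline was given to the AGO1 line only, so induced AGO1 and the drug itself cannot be told apart. The labels do not say whether libraries A and B came from separate cultures, so the spread between them may be technical. Ago2 mRNA was not analysed here.

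Argonaute proteins bind a mature miRNA and carry it to its targets, and a mature miRNA left without an Argonaute is usually short-lived. Of the mouse Argonautes, AGO2 is the one known for cutting a fully complementary target RNA. The hairpins belong to the imprinted Dlk1-Dio3 domain, in which noncoding RNAs and miRNAs are transcribed from the maternal chromosome while Rtl1 is transcribed from the paternal chromosome in the opposite direction. In mouse embryos these antisense miRNAs guide cleavage of Rtl1 mRNA, whose protein is needed for the fetal capillaries of the placenta. Among ES and induced pluripotent cells, activity of the maternal RNAs of this domain is known to vary and has been linked to developmental potential.

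In the files the names carry the mouse prefix mmu, which is left out after the sequences. The mature sequences are shown because the seed, the stretch that pairs with targets, differs in every member. They are RefSeq sequences on GRCm38.p6, all from the plus strand of chromosome 12, written 5′ to 3′ with the seed (bases 2 to 8) in capitals.
mmu-miR-431-5p: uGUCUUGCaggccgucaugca
mmu-miR-431-3p: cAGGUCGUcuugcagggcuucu
mmu-miR-433-5p: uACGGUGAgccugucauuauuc
mmu-miR-433-3p: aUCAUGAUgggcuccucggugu
mmu-miR-127-5p: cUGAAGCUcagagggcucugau
mmu-miR-127-3p: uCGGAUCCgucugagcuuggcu
mmu-miR-434-5p: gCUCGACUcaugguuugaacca
mmu-miR-434-3p: uUUGAACCaucacucgacuccu
mmu-miR-136-5p: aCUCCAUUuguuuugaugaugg
mmu-miR-136-3p: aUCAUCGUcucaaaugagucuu

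The 10 seeds were distinct, and none was shared with another mouse miRNA in the RefSeq table. What the members share is their target strand. All 10 were complementary over their whole length to the Rtl1 transcript of the GENCODE vM21 annotation, within its coding part at chr12:109590172-109595403 on the minus strand. The Rtl1 sites of the most abundant arm of the 3 more abundant hairpins are given as coding-strand DNA, with the bases facing the seed in capitals.
Rtl1 site of miR-127-3p: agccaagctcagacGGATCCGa
Rtl1 site of miR-434-3p: aggagtcgagtgatGGTTCAAa
Rtl1 site of miR-431-5p: tgcatgacggcctGCAAGACa

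The hairpins of miR-431 and miR-434 are shown because their arms changed balance between the groups and because each hairpin repeats a stretch in both arms. The arms are in capitals, and the loop and flanks in lower case. The miR-431 hairpin lies at chr12:109590447-109590537 and the miR-434 hairpin at chr12:109594506-109594599, both on the plus strand.
miR-431 hairpin: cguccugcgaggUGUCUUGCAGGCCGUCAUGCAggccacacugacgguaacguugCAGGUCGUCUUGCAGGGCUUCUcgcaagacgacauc
miR-434 hairpin: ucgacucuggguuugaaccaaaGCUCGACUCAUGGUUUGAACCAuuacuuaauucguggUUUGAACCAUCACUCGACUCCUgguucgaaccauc

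In miR-431 the run gucuugcagg occurs in both arms, at bases 2 to 11 of the 5p arm and 7 to 16 of the 3p arm. In miR-434 the run uuugaacca occurs at bases 14 to 22 of the 5p arm and 1 to 9 of the 3p arm. The longest run shared by the arms was 5 bases in miR-433 and in miR-127 and 4 bases in miR-136. Whether reads were assigned to the wrong arm was not tested. The hairpin of miR-433 lies at chr12:109591715-109591838, that of miR-127 at chr12:109592846-109592915 and that of miR-136 at chr12:109595327-109595388, and the 5 hairpins together span 4942 bases.

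The libraries held 163467 to 1326638 counted miRNA reads, the knockout libraries being among the shallower ones (359099 and 163467). Levels are CPM values, the count scaled to a common library total, after adjustment by the TMM factor (0.881 to 1.22), which sets the typical miRNA equal between libraries. They are shares of the miRNA pool, so fewer cells making a miRNA and less of it per cell cannot be told apart. A count of 3 stood for 2.57 to 15.1 CPM. Differences are log2 fold changes from 1 edgeR quasi-likelihood fit of the 8 libraries, with an approximate SE, and "rose", "fell" or "called" means a Benjamini-Hochberg adjusted p under 0.05 over the 475 miRNAs tested. With 2 libraries a group the fit borrows its spread across groups and miRNAs.

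The members made up a large part of the miRNA pool. They held 13.4% and 13.6% of the counts in the wild-type libraries, 11.4% and 8.60% in knockout lines 1 and 2, 11.7% and 13.96% without doxycycline and 14.3% and 15.5% with it. Across the 8 libraries they were 50.3% to 56.7% of all counts from the Dlk1-Dio3 miRNAs listed here. A single arm, miR-127-3p, gave 76.2% to 86.1% of the member counts, and with miR-434-3p it gave 91.2% to 95.8%. The summed share therefore follows miR-127 and shows little of the other hairpins. The 10 levels in wild-type cells ran from rank 3 (miR-127-3p) to rank 252 (miR-433-5p) among the 1915 miRNAs.

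**Figure D1:**
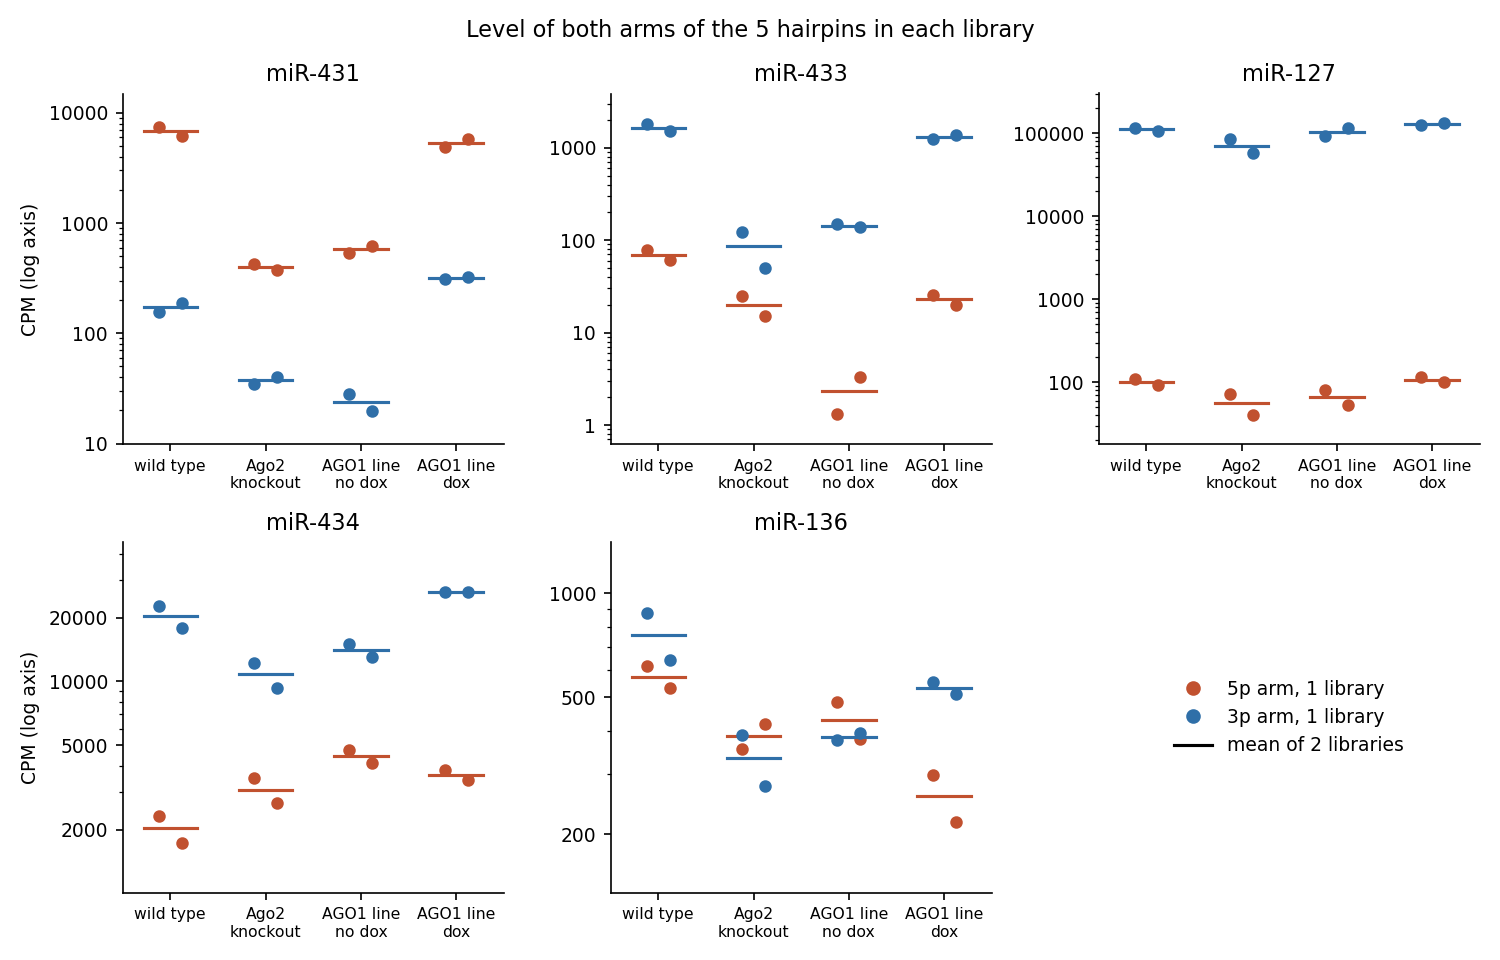
Level of each of the 10 members in each library (CPM after TMM scaling, log axis), with the 2 libraries of a group as points and the group mean as a line. The points of miR-431-5p and miR-433-3p drop by more than 10-fold in the knockout and uninduced groups and return close to wild type with doxycycline, while those of miR-127-3p stay within 57552 to 134352 CPM.

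miR-431, known in mouse for roles in muscle satellite cells, fell to a small part of its wild-type level in the knockout and rose in the AGO1 line with doxycycline. miR-431-5p, its major arm, stood at 7426 and 6210.2 CPM in wild-type cells, 421 and 373 CPM in knockout lines 1 and 2, 536 and 622 CPM in the AGO1 line without doxycycline and 4875 and 5807 CPM with it. The knockout and uninduced libraries were all low and overlapped neither wild-type nor induced libraries. The knockout mean was 5.82% of wild type, a log2 change of −4.10 ± 0.22 (17.1-fold lower, adjusted p = 5.43e-07 by edgeR). With doxycycline the level rose by 3.21 ± 0.21 on the log2 scale (9.24-fold, adjusted p = 2.58e-06), to 78.3% of the wild-type mean. The difference that remained between induced and wild-type cells, −0.35 ± 0.19 (95% interval −0.77 to 0.06, adjusted p = 0.154), did not pass the test.

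The minor arm, miR-431-3p, moved the same way from a lower level. It stood at 156 and 190.0 CPM in wild-type cells, 34.9 and 40.3 CPM in knockout cells, 27.98 and 19.9 CPM without doxycycline and 308 and 327 CPM with it. Both induced libraries were above both wild-type libraries, and the uninduced ones were the lowest. It fell 4.66-fold in the knockout (log2 −2.22 ± 0.33, adjusted p = 0.0004) and rose 12.7-fold with doxycycline (3.66 ± 0.32, adjusted p = 1.68e-05). The induced level was above wild type by 0.88 ± 0.26 (adjusted p = 0.0252), and this call was lost when either wild-type or either induced library was left out (adjusted p 0.0650 to 0.109).

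miR-433, which in mouse bone-forming cells represses Runx2, followed the same course. Its major arm miR-433-3p stood at 1794 and 1507 CPM in wild-type cells, 122 and 50.4 CPM in knockout lines 1 and 2, 148 and 139 CPM without doxycycline and 1234 and 1370 CPM with it. Induced libraries were near wild type, but both lay below the lower wild-type library, while the knockout and uninduced ones were far below. The fall in the knockout was 18.0-fold (log2 −4.17 ± 0.33, adjusted p = 6.39e-06), to 5.22% of wild type. The rise with doxycycline was 9.04-fold (3.18 ± 0.31, adjusted p = 3.54e-05), to 78.9% of wild type, and the remaining difference of −0.34 ± 0.27 (95% interval −0.95 to 0.26, adjusted p = 0.335) did not pass the test.

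miR-433-5p, the minor arm, was too rare for a firm statement in several libraries. Its raw counts were 66 and 67 in wild-type cells, 10 and 3 in knockout cells, 1 and 1 without doxycycline and 30 and 20 with it. The wild-type libraries were the highest and the uninduced ones were at the limit of counting. It fell in the knockout (log2 −1.69 ± 0.44, adjusted p = 0.00883), and the ratio of knockout to wild-type CPM from summed counts was 0.318 with an exact 95% counting interval of 0.165 to 0.563. It rose with doxycycline (adjusted p = 0.00478), with a count ratio of 12.1 whose interval ran from 3.19 to 102.9. It did not return to wild type, the induced libraries lying at 25.7 and 19.95 CPM against 78.4 and 60.3 CPM (−1.58 ± 0.35, adjusted p = 0.00556). The call against wild type was lost without wild-type library A or without either induced library (adjusted p 0.0563 to 0.109), that with doxycycline without uninduced library A (0.0908), and that of the knockout without wild-type library A (0.0693).

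miR-127, whose loss in mice alters the placental labyrinth, changed far less. miR-127-3p stood at 115363 and 107478 CPM in wild-type cells, 84617 and 57552 CPM in knockout lines 1 and 2, 93359 and 116560.2 CPM without doxycycline and 124627 and 134352 CPM with it. Both knockout lines were below all other libraries, and the uninduced libraries spanned the wild-type ones. The knockout level was 1.57-fold lower than wild type (log2 −0.65 ± 0.19, adjusted p = 0.0147). That call was lost without wild-type library A (−0.42, adjusted p = 0.181), knockout line 2 (−0.36, 0.123) or either induced library (0.0514 and 0.0653), and without TMM scaling (−0.35, 0.0877). With doxycycline the change was 0.30 ± 0.19 (95% interval −0.11 to 0.72, adjusted p = 0.249), an interval that lies below the rises of miR-431 and miR-433 and still allows a smaller one.

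miR-127-5p, the passenger of this hairpin, stood at 109 and 93.6 CPM in wild-type cells, 72.3 and 40.3 CPM in knockout cells, 79.95 and 53.0 CPM without doxycycline and 116 and 99.8 CPM with it. Its knockout and uninduced libraries lay below the wild-type and induced ones, but no difference passed the test (knockout −0.78 ± 0.36, adjusted p = 0.0901, and doxycycline 0.65 ± 0.33, adjusted p = 0.171). Without knockout line 1 the knockout difference was −1.32 ± 0.55.

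The 2 arms of miR-434 moved in opposite directions in the knockout. miR-434-3p, the major arm, stood at 22594 and 17890.4 CPM in wild-type cells, 12249 and 9341 CPM in knockout cells, 15020.4 and 13065 CPM without doxycycline and 26277 and 26404 CPM with it. Induced libraries were the highest and knockout libraries the lowest. It fell in the knockout (log2 −0.91 ± 0.18, adjusted p = 0.00241) and rose 1.88-fold with doxycycline (0.91 ± 0.18, adjusted p = 0.00500). The first call was lost without wild-type library A (−0.55, adjusted p = 0.0616) and the second without uninduced library B (0.65, adjusted p = 0.132).

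miR-434-5p was the only one of the 10 that rose in the knockout. It stood at 2336 and 1737 CPM in wild-type cells, 3496 and 2664 CPM in knockout cells, 4740 and 4141 CPM without doxycycline and 3814 and 3438 CPM with it. Every library without Ago2 exceeded both wild-type libraries. The knockout level was 1.51-fold higher (log2 0.60 ± 0.21, adjusted p = 0.0340) and the induced level 1.78-fold higher than wild type (0.83 ± 0.21, adjusted p = 0.0124), while doxycycline changed it by −0.29 ± 0.21 (adjusted p = 0.319). The knockout call was lost without wild-type library B (0.39, adjusted p = 0.238) or knockout line 1 (0.39, 0.155), and the induced one without wild-type library B (0.110) or induced library A (0.0515).

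Neither arm of miR-136 was called higher with doxycycline. miR-136-5p stood at 616 and 532 CPM in wild-type cells, 354 and 418 CPM in knockout cells, 484 and 377.3 CPM without doxycycline and 298 and 218 CPM with it. Both induced libraries were below all others. The difference between knockout and wild type (−0.58 ± 0.25, adjusted p = 0.0669) did not pass the test. It was −0.66 ± 0.28 without knockout line 2. With a filter at a mean of 20 CPM it was called (−0.57, adjusted p = 0.0491). The induced level was 2.22-fold below wild type (−1.15 ± 0.24, adjusted p = 0.00471), which was no longer called without wild-type library A (0.0691) or induced library B (0.118). It was 1.68-fold below the uninduced level (−0.75 ± 0.24, adjusted p = 0.0421), and that call did not hold without either wild-type library (0.0736 and 0.0663), either induced library (0.103 and 0.366) or uninduced library A (−0.41, 0.472).

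miR-136-3p stood at 877 and 640.2 CPM in wild-type cells, 389 and 277 CPM in knockout cells, 374 and 394 CPM without doxycycline and 555 and 511 CPM with it. Wild-type libraries were the highest, and induced libraries lay between them and the rest. It fell 2.26-fold in the knockout (log2 −1.17 ± 0.24, adjusted p = 0.00283), which was no longer called without wild-type library A (−0.75, adjusted p = 0.0576). Neither the change with doxycycline (0.47 ± 0.24, adjusted p = 0.164) nor the difference of induced cells from wild type (−0.51 ± 0.23, adjusted p = 0.109) passed the test.

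**Figure D2:**
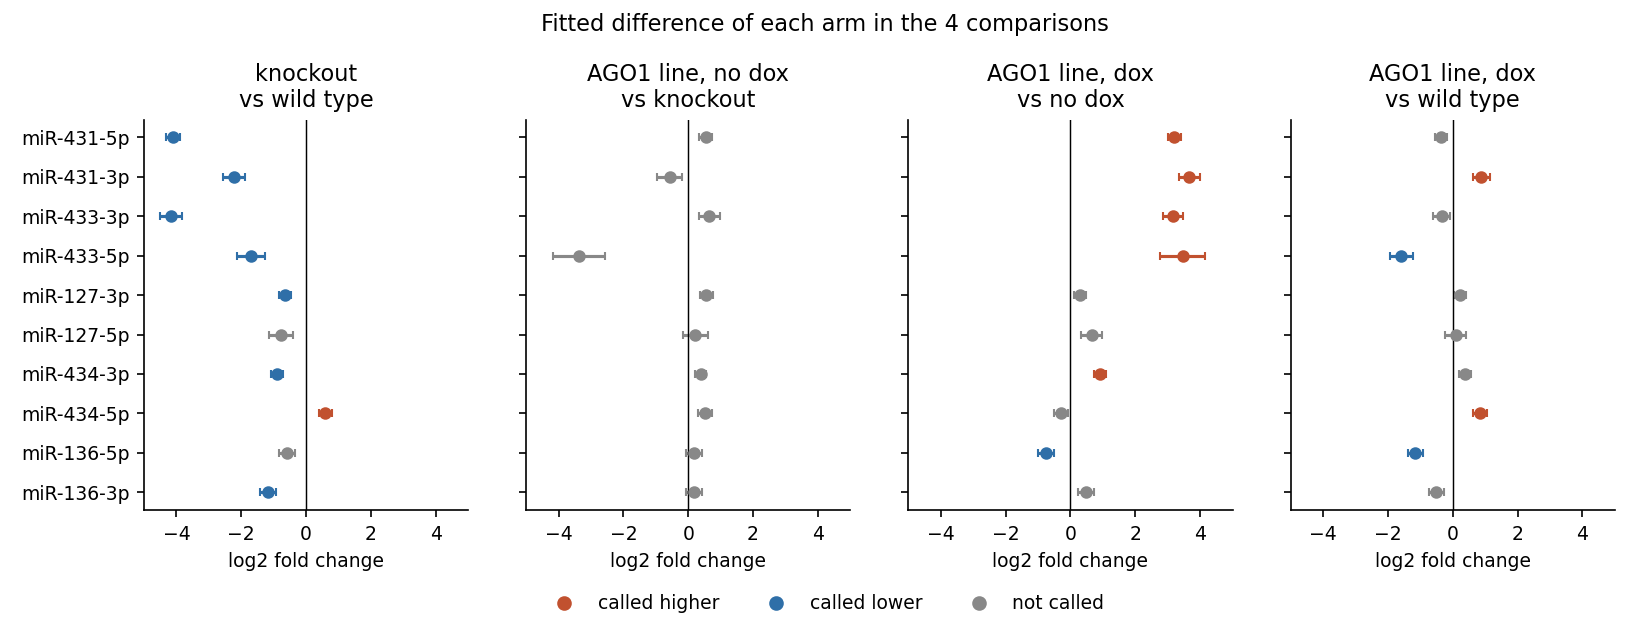
Log2 fold change of each member in the 4 comparisons, from the edgeR fit, with bars of 1 SE and colour for arms called higher or lower. The arms of miR-431 and miR-433 lie farthest from 0 for the knockout (−4.17 to −1.69) and for doxycycline (3.18 to 3.66), and the arms of miR-127, miR-434 and miR-136 stay between −1.17 and 0.91 in both.

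In the knockout against wild type, 7 of the 10 members fell and 1 rose. The members that fell are both arms of miR-431 and of miR-433, miR-127-3p, miR-434-3p and miR-136-3p. Among all 475 tested miRNAs 57.7% were called, 32.2% lower and 25.5% higher (153 and 121 miRNAs, which became 111 and 155 without TMM scaling). The median log2 change of the 10 was −1.04, beside −0.13 over all tested. It was −3.16 over the 4 arms of miR-431 and miR-433 and −0.71 over the other 6 arms. The number called fell to 4 without wild-type library A, and the calls of both miR-431 arms and miR-433-3p held with any 1 library left out.

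The AGO1 line without doxycycline was compared with the knockout lines to see where the line stood before induction. None of the members was called by edgeR, and 4 of 10 had an unadjusted p under 0.05. By DESeq2 none was called either, though miR-433-5p had no adjusted p there. Over all tested miRNAs 0% were called by edgeR, with 72 of 475 at an unadjusted p under 0.05. DESeq2 called 4 higher and 4 lower, and edgeR without TMM factors called 2 lower. miR-431-5p differed by 0.54 ± 0.20 (adjusted p = 0.253) and miR-433-3p by 0.65 ± 0.33 (adjusted p = 0.376). The largest difference, −3.36 ± 0.80 for miR-433-5p (adjusted p = 0.135), rests on 2 summed counts against 13, a CPM ratio of 0.0877 with a counting interval of 0.00961 to 0.387. The AGO1 line was made from knockout line 1. With line 1 left out, the differences were 1.52 for miR-433-3p, 0.87 for miR-127-3p and 0.74 for miR-434-5p. Against line 1 alone, with line 2 left out, they were 0.21, 0.28 and 0.32, and miR-433-5p differed by −3.63.

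With doxycycline 5 of the members rose and 1 fell. Both arms of miR-431 and miR-433 and miR-434-3p rose, and miR-136-5p fell. Of all tested miRNAs 28.6% were called, 21.1% higher and 7.58% lower (100 and 36 miRNAs, which became 83 and 64 without TMM scaling). The median change was 0.78 over the 10 and 0.03 over all tested. By the same unplanned split it was 3.34 over the arms of miR-431 and miR-433 and 0.39 over the other 6. Leaving out 1 library gave 4 to 7 calls among the members, and both miR-431 arms and miR-433-3p were called each time.

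Induced cells differed from wild type in 4 members, miR-431-3p and miR-434-5p being higher and miR-433-5p and miR-136-5p lower. The background was 38.9% called, 19.2% higher and 19.8% lower. Induced levels ran from 32.9% of the wild-type mean for miR-433-5p to 184% for miR-431-3p. They were 116% for miR-127-3p, 130.1% for miR-434-3p and 44.9% for miR-136-5p. Each of the 4 calls was lost when some single library was left out, and between 1 and 6 members were called then. The 4 comparisons share groups with one another, so their values are set side by side and are not independent.

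Because the 5 hairpins are neighbours, the levels were also set against the most abundant arm in each library, which needs no scaling between libraries. For every 100 counts of miR-127-3p, the wild-type libraries had 6.44 and 5.78 counts of miR-431-5p, the knockout libraries 0.50 and 0.65, the uninduced 0.57 and 0.53 and the induced 3.91 and 4.32. For miR-433-3p the values were 1.56 and 1.40, 0.14 and 0.09, 0.16 and 0.12, and 0.99 and 1.02, in the same order. These ratios were lower in the knockout, as the CPM values were. The loss in miR-431 and miR-433 was thus also present relative to their neighbour. The ratios were higher again with doxycycline, but for both arms the induced ones stayed below both wild-type ones. miR-434-3p by contrast stayed between 11.2 and 21.1 counts per 100, and its knockout libraries (14.5 and 16.2) lay close to the lower wild-type value of 16.65.

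The balance of the 2 arms of a hairpin was tested on their counts within libraries, with a term for each library. The test covered the 270 hairpins with both arms listed whose arms summed to at least 10 counts in at least 2 libraries. This edgeR fit assumed the same spread for every hairpin. A fit of the log2 arm ratio per library with limma, chosen after seeing the data, is given beside it. miR-434 shifted toward its 5p arm in the knockout. The 5p share was 9.37% and 8.85% in wild-type cells, 22.20% and 22.19% in knockout cells, 23.99% and 24.07% without doxycycline and 12.7% and 11.5% with it. The 4 libraries with neither Ago2 nor induced AGO1 lay apart from the other 4. The 5p to 3p ratio was 2.85-fold higher in the knockout (log2 1.51 ± 0.28, adjusted p = 1.89e-06, and 0.0215 by limma). It fell with doxycycline by 1.20 ± 0.28 on the log2 scale (adjusted p = 0.00082), which limma did not call (0.172) and which was lost without induced library B (0.0780).

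miR-431 and miR-433 shifted toward their minor arm in the knockout, the major arm having fallen further than the minor one. The 5p share of miR-431 went from 97.9% and 97.0% in wild-type cells to 92.3% and 90.2% in knockout cells, with 95.04% and 96.9% without doxycycline and 94.1% and 94.7% with it. The knockout difference of the log2 ratio was −1.85 ± 0.45 (adjusted p = 0.000298, and 0.0202 by limma). For miR-433 the 5p share went from 4.19% and 3.85% to 16.9% and 23.1%, with Wilson 95% intervals of 9.48% to 28.5% and 8.18% to 50.3% in the knockout lines because of their low counts. The log2 ratio differed by 2.42 ± 0.59 (adjusted p = 0.000388, and 0.0196 by limma), a call lost without knockout line 1 (0.0750). The Wilson and exact intervals describe counting error alone, as amplified reads lacking molecular identifiers may be copies of one molecule.

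In induced cells the ratios of both hairpins lay on the same side of wild type, toward the 3p arm. The difference was −1.23 ± 0.28 for miR-431 (adjusted p = 8.34e-05) and −1.23 ± 0.35 for miR-433 (adjusted p = 0.00274), and limma called neither (0.128 and 0.235). For miR-433 the call was also lost without induced library B (0.101). The miR-433 difference between uninduced and knockout cells (−3.98 ± 0.91, adjusted p = 0.00406) rests on 1 5p count in each uninduced library and was not called by limma (0.146).

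miR-136 was the most evenly divided hairpin. Its 5p share was 41.2% and 45.4% in wild-type cells, 47.7% and 60.1% in knockout cells, 56.4% and 48.9% without doxycycline and 34.9% and 29.9% with it. The induced libraries had the lowest 5p shares. The ratio fell with doxycycline by 1.24 ± 0.29 on the log2 scale (adjusted p = 0.00082, and 0.209 by limma), a call lost without uninduced library A (0.269) or induced library B (0.0820). In miR-127 the 5p share was 0.05% to 0.09% in all 8 libraries and no difference was called.

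**Figure D3:**
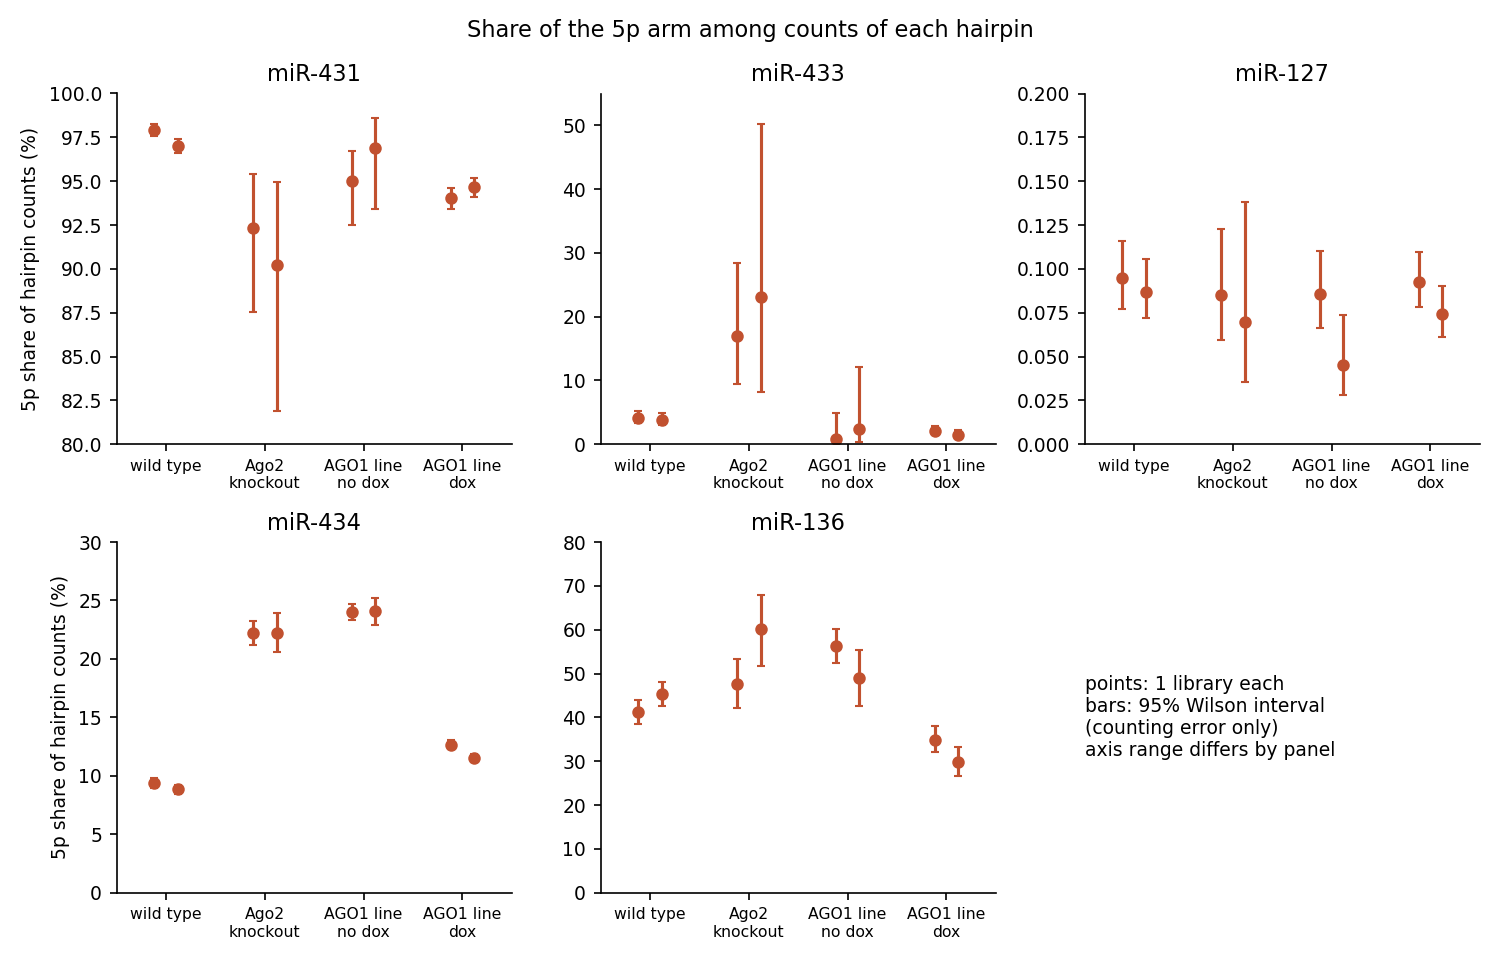
Share of the 5p arm in the counts of both arms of each hairpin (percent), by library, with Wilson 95% intervals that cover counting error. For miR-434 the knockout and uninduced libraries sit between 22.2% and 24.1% and the wild-type and induced ones between 8.85% and 12.7%.

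Over the 270 hairpins, the share with a called arm balance was 21.5% in the knockout against wild type, 0.741% between uninduced and knockout cells, 4.07% with doxycycline and 24.8% between induced and wild-type cells. Among the 5 hairpins the counts were 3, 1, 2 and 2.

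The hairpins upstream and downstream in the domain were compared by position, from lists of all annotated miRNAs on either side of the 5 hairpins. Of the 17 upstream arms listed 9 were tested, and of the 84 downstream arms 58. Of the tested upstream arms, 6 fell and 1 rose in the knockout, and of the downstream arms 34 fell and 8 rose. With doxycycline 3 upstream arms rose and none fell, while 33 downstream arms rose and 2 fell. The median log2 changes in the knockout were −1.13 upstream and −1.42 downstream, and with doxycycline 0.52 and 1.22. Neighbouring hairpins differed, as the members did. miR-540-3p upstream fell in the knockout (−2.70 ± 0.52, adjusted p = 0.00178) and changed by 0.60 ± 0.47 with doxycycline (adjusted p = 0.357), and it stayed below wild type in induced cells (−1.65 ± 0.35, adjusted p = 0.00481). miR-337-5p upstream fell by 0.60 ± 0.21 (adjusted p = 0.0331) and changed by 0.11 ± 0.21 with doxycycline (adjusted p = 0.729). miR-665-3p, the nearest tested arm upstream, was not called in the knockout (0.66 ± 0.32, adjusted p = 0.102) or with doxycycline (0.03 ± 0.30, adjusted p = 0.958). In induced cells miR-665-3p was higher than in wild type (1.10 ± 0.30, adjusted p = 0.0166). No arm of miR-3070 passed the filter on low counts. miR-341-3p downstream fell by 3.47 ± 0.28 (adjusted p = 6.59e-06), rose with doxycycline by 2.54 ± 0.27 (adjusted p = 5.94e-05) and stood at −0.09 ± 0.25 from wild type. Its other arm, miR-341-5p, fell by 2.20 ± 0.51 (adjusted p = 0.00508), and its change with doxycycline was not called (0.95 ± 0.49, adjusted p = 0.173). In induced cells miR-341-5p stayed below wild type (−1.30 ± 0.42, adjusted p = 0.0350). miR-370-3p, farther downstream, fell by 1.25 ± 0.28 (adjusted p = 0.00379) and rose by 1.26 ± 0.27 (adjusted p = 0.00694).

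**Figure D4:**
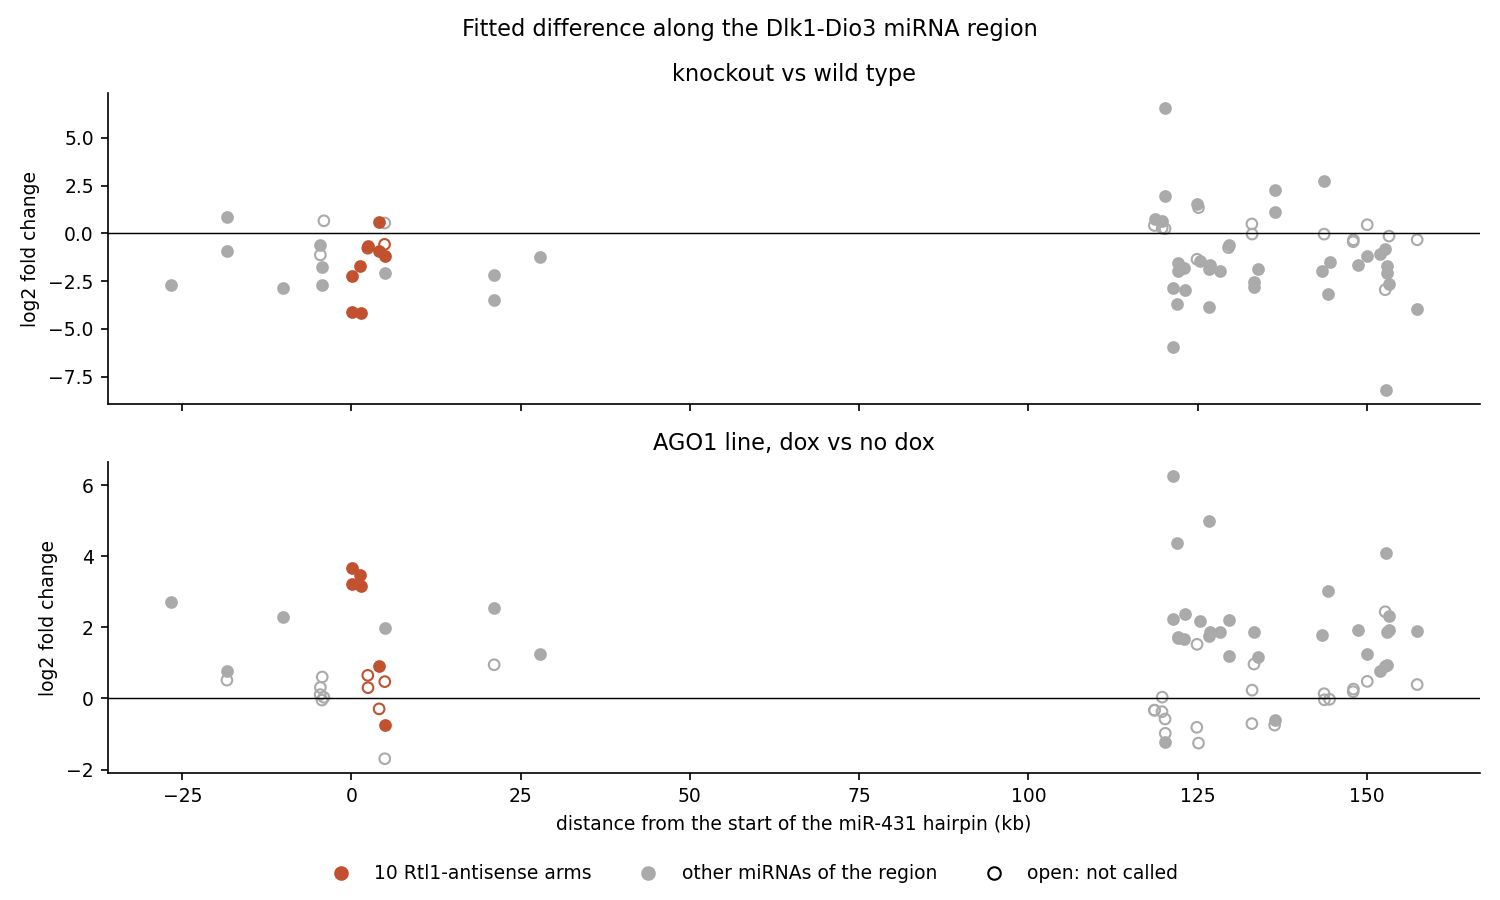
Log2 fold change of 75 tested Dlk1-Dio3 miRNAs against their distance along the chromosome from the first of the 5 hairpins (kb), for the knockout and for doxycycline, with the 10 members marked. Open circles mark miRNAs that were not called. Members sit together near 0 kb, and both among them and among the 65 others large changes stand beside small ones.

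The miR-3071 hairpin is annotated on the opposite strand at chr12:109595318-109595397 and shares 62 bases with the miR-136 hairpin. Whether the counting used strand is not given in the sources used here, so its reads and those of miR-136 may be split with error. miR-3071-3p had 35 and 34 counts in wild-type cells, 3 and 2 in knockout cells, 5 and 4 without doxycycline and 45 and 32 with it, against 83 to 591 for miR-136-5p. It fell in the knockout (−2.07 ± 0.58, adjusted p = 0.0124) and rose with doxycycline (1.99 ± 0.49, adjusted p = 0.0143). miR-136-5p, which lies opposite miR-3071-3p, fell with doxycycline (−0.75 ± 0.24, adjusted p = 0.0421). The other arm, miR-3071-5p, changed by 0.54 ± 0.67 in the knockout (adjusted p = 0.503) and −1.69 ± 0.79 with doxycycline (adjusted p = 0.137). It was lower in induced than in wild-type cells (−2.13 ± 0.70, adjusted p = 0.0359). For miR-136-3p, which lies opposite miR-3071-5p, that difference was not called (−0.51 ± 0.23, adjusted p = 0.109). miR-432, annotated between miR-434 and miR-136, had 0 counts in every library.

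Across the 8 libraries the miRNAs whose log2 levels ran most closely with a member were found by Pearson's r on log2(CPM + 1), as a description that the shared groups largely set. For miR-431-5p they were miR-380-3p (r = 0.996), miR-410-3p (0.994) and miR-341-3p (0.991), all downstream in the domain. miR-380-3p stood at 2032 and 1604 CPM in wild-type cells, 287 and 207 CPM in knockout cells, 316 and 380.7 CPM without doxycycline and 1629 and 1659 CPM with it. For miR-433-3p they were miR-380-3p (0.994), miR-410-3p (0.992) and miR-3057-5p (0.991), the last of which is not in the domain's lists. The nearest to miR-127-3p were miR-323-5p (0.960), miR-337-5p (0.940) and miR-409-3p (0.933). Pearson's r does not take in the size of a change. miR-323-5p fell by 1.57 ± 0.59 in the knockout and rose by 1.71 ± 0.44 with doxycycline. The same differences were −0.65 ± 0.19 and 0.30 ± 0.19 for miR-127-3p. miR-323-5p was also rare, with 5 and 1 counts in knockout lines 1 and 2. For miR-434-3p they were miR-673-5p (0.988), miR-382-5p (0.977) and miR-323-3p (0.973), and for miR-136-3p miR-130a-3p (0.980), miR-149-5p (0.970) and miR-138-5p (0.967), none of them in the domain. For miR-431-5p the values against the other members were 0.988 for miR-433-3p, 0.919 for miR-431-3p, 0.897 for miR-136-3p, 0.894 for miR-434-3p, 0.828 for miR-127-5p, 0.726 for miR-127-3p, 0.677 for miR-433-5p, −0.034 for miR-136-5p and −0.486 for miR-434-5p. The arms of miR-431 and miR-433 are thus not set apart from the other hairpins by this measure.

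The label of the cells was checked against 26 miRNAs abundant in ES cells, all of which had counts and which made up 25.5% to 30.8% of each library. Of 3 muscle miRNAs 1 had counts, summing to 0 to 6.62 CPM, with miR-1a-3p and miR-206-3p at 0. The 3 neural miRNAs summed to 1506 to 1873 CPM in wild-type, 851 to 895 in knockout, 748 to 1109 in uninduced and 941 to 1094 CPM in induced libraries. Of them miR-128-3p fell in the knockout (−1.28 ± 0.25, adjusted p = 0.00212), and its change with doxycycline was not called (0.57 ± 0.25, adjusted p = 0.117). miR-124-3p and miR-9-5p were not called in the knockout (−0.71 ± 0.37 and −0.31 ± 0.24) or with doxycycline (−0.65 ± 0.36 and −0.45 ± 0.24). Of 3 blood miRNAs, 2 had counts (miR-223-3p was at 0), summing to 1428 to 1572 CPM in wild-type, 3142 to 4022 in knockout, 4648 to 5259.7 in uninduced and 2884 to 3118 in induced libraries. Both rose in the knockout (miR-142a-3p 3.29 ± 0.38, adjusted p = 8.56e-05, and miR-150-5p 1.11 ± 0.21, adjusted p = 0.00158). With doxycycline miR-150-5p fell (−0.72 ± 0.21, adjusted p = 0.0248) and miR-142a-3p was not called (−0.73 ± 0.35). Of 5 miRNAs abundant in fibroblasts 4 had counts (miR-214-3p was at 0), and their sum was 4267 to 4981 CPM in wild-type, 1586 to 1664 in knockout, 1576 to 1654 in uninduced and 2638 to 2883 CPM in induced libraries. Within that list miR-143-3p moved as miR-431 and miR-433 did (−3.29 ± 0.20 in the knockout, adjusted p = 8.05e-07, and 2.78 ± 0.20 with doxycycline, adjusted p = 4.02e-06). The other 3 with counts were not called in the knockout (miR-145a-5p 0.89 ± 0.39, miR-199a-3p 0.33 ± 0.48 and miR-21a-5p 0.06 ± 0.18). With doxycycline miR-21a-5p fell (−0.62 ± 0.18, adjusted p = 0.0260) and miR-145a-5p (0.26 ± 0.36) and miR-199a-3p (−0.17 ± 0.43) were not called. The part of these lists in the changes of the members was not tested.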

How the data were processed

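Small RNA libraries were made with the TruSeq small RNA kit per the labels' protocols. The submitters' processing notes name Bowtie and the mm10 build. The trimming, the mismatches allowed and the treatment of reads matching several miRNAs were in none of the sources used here, and each can move reads between similar arms. The authors deposited whole-number counts per mature miRNA and library, which were used as deposited, and 0 columns of per-sample values were left unmatched. Counts were tested with edgeR 4.0.16 in R 4.3.3 (TMM, filterByExpr, quasi-likelihood F test, 2-sided) in 1 fit of 4 groups with 4 residual degrees of freedom. The SE was derived from the fold change and F. Arm balance was tested for hairpins whose arms summed to at least 10 counts in at least 2 libraries. DESeq2 1.42.0 and limma 3.58.1 served as alternatives, and the scripts were tested on simulated data. The table has a pair of header lines that disagree on the first library's name, and the first was used.

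The members, the lists and the markers were chosen with earlier results of these data known. The text names all 10 members, the neighbouring hairpins, and for the major arm of each member hairpin the 3 miRNAs with the highest correlation. Sequences came from RefSeq (GRCm38.p6) and Rtl1 from GENCODE vM21.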

Additional observations from a re-analysis of the deposited data

How the results depend on the processing

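Depth limits the minor arms most, miR-433-5p having 1 count in each uninduced library, and 2 libraries a group leave many calls resting on a single library. With library totals in place of TMM factors, the median log2 change of all tested miRNAs moved from −0.13 to 0.16 for the knockout, from −0.01 to −0.19 for uninduced against knockout cells and from 0.03 to −0.17 for doxycycline. For the knockout 8 members were called, and 4 to 8 when 1 library was left out. For doxycycline 6 were called, and 4 to 7 then. These are total calls, and new calls are among them. Each fit estimated its own spread and its own degrees of freedom, the measure of how well that spread is known. Without the abundance filter the SE of miR-431-5p in the knockout rose from 0.22 to 0.26, yet its edgeR adjusted p fell from 5.43e-07 to 3.04e-53. The fall in adjusted p came with a larger SE, so the spread alone does not set it. Adjusted p values are thus not on the same scale across fits, those with 1 library left out included. Calls gained, lost or held between fits depend on this as well as on the libraries used. Between uninduced and knockout cells no member was called, 2 were without the abundance filter (miR-433-5p and miR-127-3p), and 0 to 3 with 1 library left out. Between induced and wild-type cells 4 were called, 7 in a fit of only those groups, and 1 to 6 with 1 library left out. The share of all miRNAs called in each of these alternative fits is not given here, so their member counts stand without a background. Single calls lost by other settings for the knockout were miR-127-3p with only the groups compared (adjusted p = 0.0669, edgeR), miR-434-5p without the filter (0.0774) and miR-433-5p by DESeq2 (0.0590), and for doxycycline miR-136-5p without the filter (0.124). Calls gained were miR-136-5p for the knockout with a filter at a mean of 20 CPM (−0.57, 0.0491), and for doxycycline miR-127-3p without the filter (0.39, 0.0269) and miR-136-3p with only the groups compared (0.45, 0.0417). Arm balance was called in 3, 1, 2 and 2 hairpins in the order of the comparisons, with 2 to 3, 0 to 1, 0 to 2 and 1 to 3 when 1 library was left out. By limma, an alternative chosen after seeing the data, the last 3 became 0, 0 and 0, and uninduced against knockout became 0 with only those groups. The cause of these differences was not tested.

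With the library letters entered as a replicate block, 6 members were called for doxycycline and 6 between induced and wild-type cells, where miR-434-3p (0.39, adjusted p = 0.0191, edgeR) and miR-136-3p (−0.50, 0.0257) were added, and the arm balance was called in 2 and 3 hairpins, with miR-136 added (−0.67, 0.0126). Libraries with the same letter did not clearly deviate together (r = 0.0526, −0.00721 and 0.197 for the 3 pairs of groups), so the letters may be names only.

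Only differences that were not called changed sign. Between uninduced and knockout cells, miR-136-5p gave −0.018 without TMM factors and −0.18 to 0.50 with 1 library left out, miR-127-5p −0.32 to 0.79, miR-136-3p −0.047 to 0.47, the miR-136 arm ratio −0.014 with only those groups, −0.073 by limma and −0.41 to 0.32, and the miR-127 arm ratio −0.82 to 0.094. With doxycycline, the miR-433 arm ratio gave −0.29 by limma and −0.48 to 0.83, and that of miR-127 −0.042 to 0.87. Between induced and wild-type cells miR-127-5p gave −0.027 to 0.38 and the miR-127 arm ratio −0.29 to 0.030. Of the other values of single arms and hairpins, 719 kept their direction and side of the threshold, 45 lost the threshold and 27 gained it.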
